A study of Rattus norvegicus with 10 samples.

Results

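The genes of Wnt signalling were followed in the SON (supraoptic nucleus) of rats of the Wistar Han strain. The SON lies in the hypothalamus, and its magnocellular neurones make vasopressin and oxytocin. The members were the 58 genes, of 32402 listed, whose symbols in the authors' deposited table name Wnt ligands, frizzled receptors, the co-receptors Lrp5 and Lrp6, the secreted Dkk and Sfrp proteins, R-spondins and their Lgr receptors, or the Dvl, Dact, Axin, Tcf7 and Lef1 families. Axin1 was not analysed here. The dehydrated group went 72 h without drinking water and the euhydrated group drank freely, with 5 libraries of polyadenylated RNA each. No age or sex is given in the sources. Cages were allotted to the groups at random. The labels do not say which libraries shared a cage, so effects of cage and of treatment cannot be told apart here. A corer of 1 mm took the SON of either side from 12 slices, so each library held the neurones, glia, vessels and membranes in reach of the corer. The labels do not tie each library to an animal of its own, and p-values then measure only how these libraries spread, which may be technical.

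Wnt proteins are secreted lipid-modified ligands that bind frizzled receptors. In the canonical branch, a frizzled receptor with Lrp5 or Lrp6 recruits dishevelled (Dvl) and axin, which spares β-catenin from breakdown and lets it act with the Tcf and Lef factors on target genes. Other branches act on the cytoskeleton and on calcium without β-catenin. In the adult brain the pathway is known for its part in synapses, in glial maturation and in keeping the blood-brain barrier.

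Of the 58 members 48 passed the filter on low counts and were tested, and 7 changed. Wnt4, Wnt7a, Fzd1, Fzd10 and Dact1 fell in dehydrated libraries, while Wnt16 and Sfrp4 rose. In punched tissue fewer cells of a type and less RNA per cell cannot be told apart. The changes were small, from 1.19-fold lower for Fzd10 to 1.57-fold lower for Dact1, and 1.32-fold and 1.34-fold higher for Wnt16 and Sfrp4. A change means an adjusted p below 0.05 in edgeR's quasi-likelihood test, with Benjamini-Hochberg adjustment across the 15311 genes that passed the filter. Of those genes 12.7% passed, 7.79% higher and 4.90% lower, and of the tested members 14.6% passed, 4.17% higher and 10.4% lower. The share of members that passed was thus near the background. An unadjusted p below 0.05 was reached by 14 of the 48 members, against 26.4% of all genes. The groups did not overlap for 3 of the 48, 1 higher and 2 lower, against 6.90% higher and 3.97% lower of all genes tested. The median log2 fold change was -0.05 over tested members, against -0.01 over all genes tested, and 31 of the 48 estimates lay below 0 (64.6%, against 51.8% of all genes). With library totals in place of TMM factors the split was 8 lower and 1 higher. All genes tested moved the same way, from 750 lower and 1192 higher to 1173 lower and 904 higher. Without 1 library, 3 to 5 members fell and 0 to 2 rose. The count of falls was 3 without dehydrated 3, dehydrated 5 or euhydrated 1, and the count of rises was 0 without dehydrated 3 or euhydrated 2 and 1 without dehydrated 2, 4 or 5 or euhydrated 1 or 5.

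**Figure D1:**
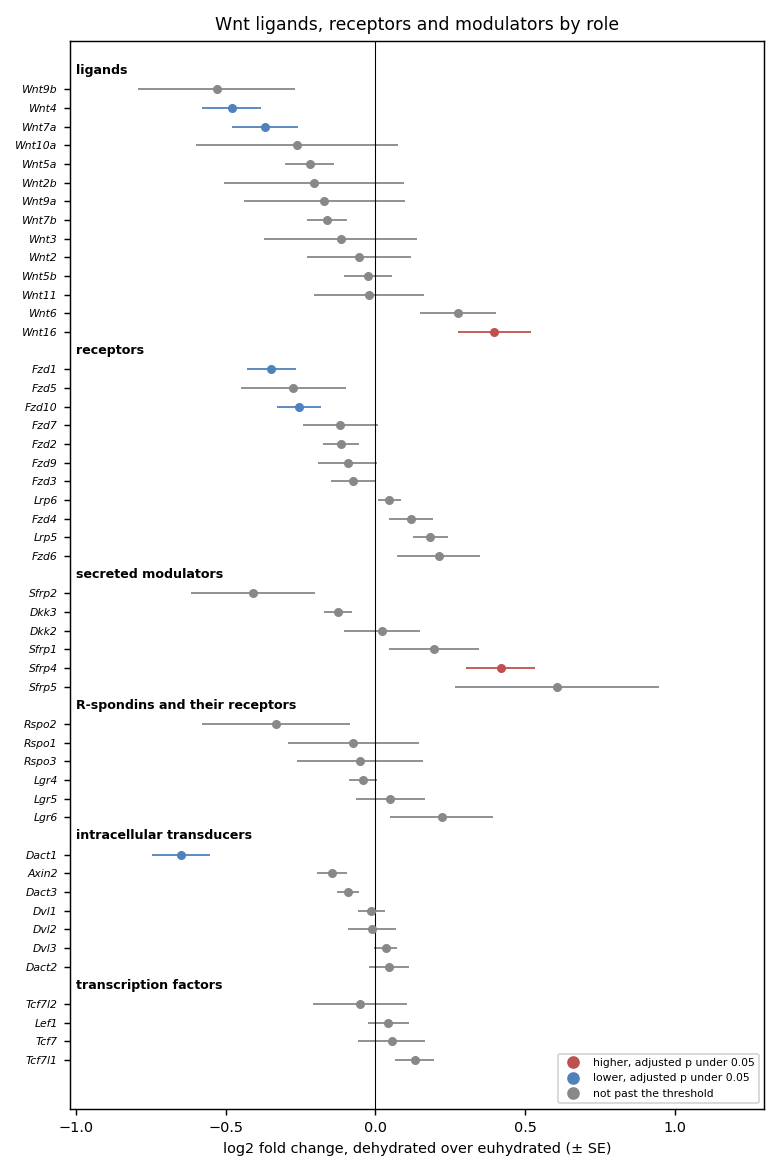
Log2 fold change of dehydrated over euhydrated libraries (horizontal axis, point ± SE, 5 libraries per group) for the 48 tested members, grouped by role. Red points are higher and blue points lower at an adjusted p under 0.05; among ligands and receptors 4 are blue (Wnt4, Wnt7a, Fzd1 and Fzd10) and 1 is red (Wnt16).

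The promoters of 4 members are shown because Dact1, Wnt4 and Fzd1 are the falls that passed in every fit without 1 library, and Axin2 is a textbook target of β-catenin with its Tcf/Lef factors. Each runs 5′ to 3′ from 250 bases before to 50 after the gene's start in RefSeq, build GRCr8: chr6:95526440-95526739 (plus strand) for Dact1, chr5:154797200-154797499 (plus strand) for Wnt4, chr4:30264824-30265123 (plus strand) for Fzd1 and chr10:94398535-94398834 (plus strand) for Axin2. Capitals mark matches on either strand to the Tcf/Lef core (CTTTG followed by AA, AT, TA or TT), the core of the cAMP response element (TGACG) or the AP-1 site (TGANTCA).
Dact1: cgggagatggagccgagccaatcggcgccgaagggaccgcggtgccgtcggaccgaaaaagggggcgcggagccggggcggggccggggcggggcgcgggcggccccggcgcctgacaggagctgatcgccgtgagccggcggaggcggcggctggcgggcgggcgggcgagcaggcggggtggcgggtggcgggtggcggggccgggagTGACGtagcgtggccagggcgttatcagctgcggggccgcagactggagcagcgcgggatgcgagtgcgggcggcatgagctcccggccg
Wnt4: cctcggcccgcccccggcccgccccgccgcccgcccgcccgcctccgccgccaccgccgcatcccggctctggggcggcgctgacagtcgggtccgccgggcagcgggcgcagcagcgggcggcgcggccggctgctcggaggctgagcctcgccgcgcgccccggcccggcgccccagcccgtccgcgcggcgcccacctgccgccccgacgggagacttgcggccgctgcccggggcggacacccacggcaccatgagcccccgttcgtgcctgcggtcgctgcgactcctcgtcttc
Fzd1: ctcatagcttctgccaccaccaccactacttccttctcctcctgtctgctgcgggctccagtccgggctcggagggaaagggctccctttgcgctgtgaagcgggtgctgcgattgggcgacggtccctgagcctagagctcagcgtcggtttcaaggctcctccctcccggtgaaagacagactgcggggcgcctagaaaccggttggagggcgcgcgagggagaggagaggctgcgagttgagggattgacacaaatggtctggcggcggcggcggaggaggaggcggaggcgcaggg
Axin2: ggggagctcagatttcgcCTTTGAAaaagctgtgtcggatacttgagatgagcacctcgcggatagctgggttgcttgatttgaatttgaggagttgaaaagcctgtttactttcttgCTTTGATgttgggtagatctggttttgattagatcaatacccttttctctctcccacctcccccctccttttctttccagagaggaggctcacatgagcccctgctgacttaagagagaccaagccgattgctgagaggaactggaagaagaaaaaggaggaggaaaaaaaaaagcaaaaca

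Axin2 held the Tcf/Lef core at bases 19 to 25 and 119 to 125 of this window, and Dact1 held TGACG at bases 211 to 215. No match lay in the windows of Wnt4 or Fzd1. Of 42 members with a promoter in the RefSeq table, 8 held a Tcf/Lef core (19.0%, against 17.1% of all 33469 promoters). TGACG was in 7 of them (16.7% against 21.2%), and the AP-1 site in 2 (4.76% against 7.33%), Lef1 and Wnt16. No match to a motif overlapped a match to another in the promoters printed. The windows differed more in base composition. Dact1 and Wnt4 had 79.3% and 83.3% G and C with 48 and 53 CpG pairs, Fzd1 had 65.3% and 24, and Axin2 had 45.7% and 5. The median was 51.7% and 7 over all promoters, and 66.2% and 25.5 over the 42 members. The motif shares above were not adjusted for this difference in composition.

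Among the 19 ligands 14 were tested, of which Wnt4 and Wnt7a fell, Wnt16 rose and 11 did not pass. The share that passed was 21.4%, against 12.7% of all genes tested. Estimates lay below 0 for 12 of the 14 (85.7%, against 51.8% of all genes tested). Roles were not tested as sets. Wnt4 (ENSRNOG00000013166), a ligand known for its part in the kidney, gonads and adrenal gland, stood at 19.1, 20.5, 23.9, 27.0 and 19.7 CPM in dehydrated libraries 1 to 5, against 29.9, 29.6, 32.7, 26.6 and 34.6 CPM in euhydrated libraries 1 to 5. Levels are in CPM, read counts scaled by library size after TMM. Only dehydrated 4 reached into the euhydrated range, where euhydrated 4 was lowest. Wnt4 averaged 22.0 ± 3.33 CPM in dehydrated and 30.7 ± 3.06 CPM in euhydrated libraries (SD, n = 5 each), and its log2 fold change was -0.48 ± 0.10 (SE; edgeR adjusted p = 0.00684). It was the 63rd of the 750 genes that fell, ordered by size of the change. It passed in all 22 other fits, with adjusted p up to 0.0419.

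Wnt7a (ENSRNOG00000048782) encodes a ligand that neural cells send to the endothelium of brain vessels, where it is known to act through a frizzled receptor with Reck and Adgra2. Wnt7a stood at 17.4, 16.1, 15.0, 20.4 and 12.5 CPM in dehydrated libraries 1 to 5, against 22.2, 21.0, 18.0, 23.1 and 20.8 CPM in euhydrated libraries 1 to 5. Dehydrated 4 lay above euhydrated 3, and the other dehydrated libraries lay below all euhydrated ones. Its log2 fold change was -0.37 ± 0.11 (SE; edgeR adjusted p = 0.0461). The call was lost without any single library other than dehydrated 4 or euhydrated 3 (adjusted p 0.0578 to 0.110). Wnt7b, the close relative with the same known action on brain vessels, averaged 27.2 ± 2.54 CPM in dehydrated and 30.4 ± 2.08 CPM in euhydrated libraries (SD, n = 5 each) and did not pass (edgeR adjusted p = 0.129).

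Wnt16 (ENSRNOG00000005781), a ligand best known from bone, stood at 7.94, 11.2, 8.32, 9.23 and 8.64 CPM in dehydrated libraries 1 to 5, against 7.41, 5.47, 7.60, 8.14 and 5.76 CPM in euhydrated libraries 1 to 5. Dehydrated 2 was the highest, and dehydrated 1 lay below euhydrated 4, so the groups overlapped. On the log2 scale Wnt16 was higher by 0.40 ± 0.12 (SE; edgeR adjusted p = 0.0446). The call held without dehydrated 1, euhydrated 3 or euhydrated 4 and was lost without any of the other 7 libraries (adjusted p 0.0591 to 0.112). With the level of leptomeningeal markers as a covariate the log2 fold change was 0.23 ± 0.12, and it did not pass (adjusted p = 0.288). Library totals ended the call as well (0.0573), and the alternatives spanned 0.0104 to 0.326.

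Wnt5a (ENSRNOG00000015618), the prototype of the branch that works without β-catenin, stood at 17.9, 14.3, 15.6, 15.1 and 12.8 CPM in dehydrated libraries 1 to 5, against 18.0, 15.4, 18.5, 19.0 and 17.4 CPM in euhydrated libraries 1 to 5. Dehydrated 1 and 3 lay within the euhydrated range, and euhydrated 2 and 5 within the dehydrated range. Its log2 fold change of -0.22 ± 0.08 (SE) did not pass (edgeR adjusted p = 0.0968), except without dehydrated 1, when it was -0.29 (adjusted p = 0.0269, where the alternatives reached 0.845). Wnt5b and Wnt11, assigned to the same branch, had 7.59 ± 0.414 and 1.07 ± 0.147 CPM in dehydrated libraries, against 7.71 ± 0.595 and 1.09 ± 0.155 CPM in euhydrated libraries (SD, n = 5 each). Neither passed, and both means differed by less than the SD within a group. Wnt6 averaged 8.64 ± 0.591 CPM in dehydrated and 7.13 ± 1.54 CPM in euhydrated libraries, with euhydrated 2 lowest at 4.94 CPM, and Wnt9b averaged 0.828 ± 0.374 CPM in dehydrated and 1.19 ± 0.155 CPM in euhydrated libraries; their edgeR adjusted p were 0.179 and 0.211. The other tested ligands, Wnt2, Wnt2b, Wnt3, Wnt9a and Wnt10a, had means between 0.495 and 1.86 CPM in either group and edgeR adjusted p of 0.684 to 0.882.

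**Figure D2:**
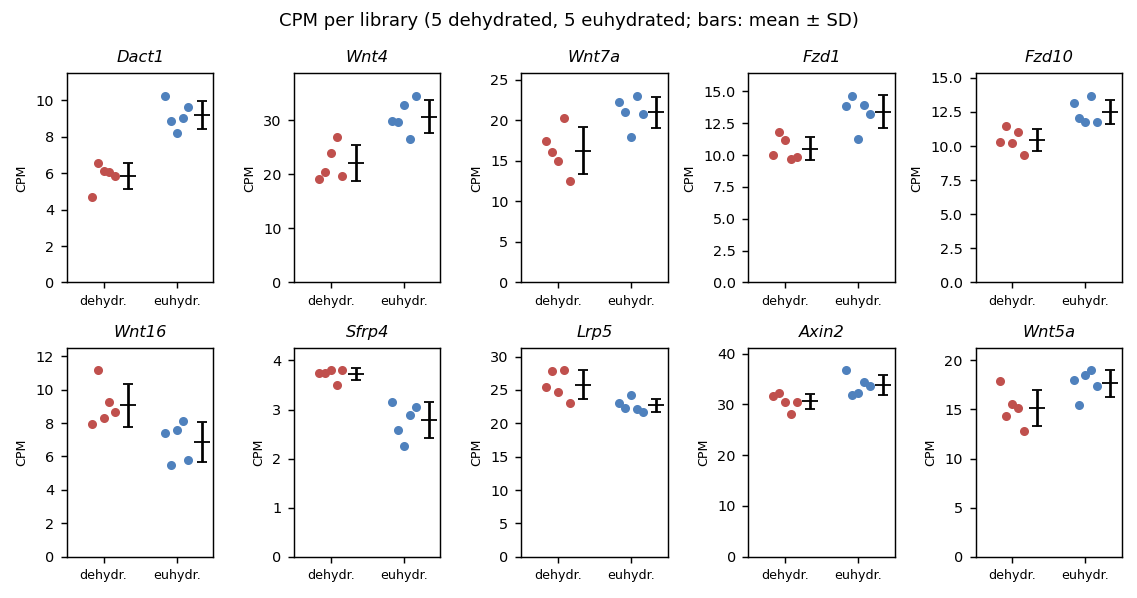
CPM per library (vertical axes, starting at 0) for the 7 members that changed and the 3 with an adjusted p of 0.05 to 0.1, dehydrated libraries in red on the left of each panel and euhydrated in blue, with mean ± SD in black. Groups are apart for Dact1, Fzd10 and Sfrp4 and overlap by single libraries for Wnt4 (dehydrated 4 at 27.0 CPM against euhydrated 4 at 26.6 CPM).

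Of 12 frizzled and Lrp receptors 11 were tested, of which Fzd1 and Fzd10 fell and 9 did not pass. The share that passed was 18.2%, against 12.7% of all genes tested. Fzd1 (ENSRNOG00000016242), for a membrane receptor of Wnt ligands, stood at 10.0, 11.8, 11.2, 9.69 and 9.88 CPM in dehydrated libraries 1 to 5, against 13.8, 14.7, 11.3, 14.0 and 13.3 CPM in euhydrated libraries 1 to 5. Euhydrated 3, at 11.3 CPM, was the only euhydrated library within the dehydrated range. The log2 fold change was -0.35 ± 0.08 (SE; edgeR adjusted p = 0.011). It passed in each fit without 1 library, with adjusted p up to 0.0304, and did not pass with the erythrocyte or leptomeningeal marker level as a covariate (-0.26 ± 0.11 and -0.33 ± 0.10; adjusted p = 0.190 and 0.0608, where all alternatives ran from 0.00198 to 0.190).

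Fzd10 (ENSRNOG00000022784), another frizzled receptor, stood at 10.3, 11.4, 10.2, 11.0 and 9.32 CPM in dehydrated libraries 1 to 5, against 13.2, 12.0, 11.8, 13.7 and 11.8 CPM in euhydrated libraries 1 to 5. Every dehydrated library lay below every euhydrated one, as in 3.97% of all genes tested. Its log2 fold change was -0.25 ± 0.07 (SE; edgeR adjusted p = 0.034). The call was lost without dehydrated 1, 3 or 5 or euhydrated 1 or 4 (adjusted p 0.0661 to 0.0917).

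Lrp5 (ENSRNOG00000015911), the co-receptor of the canonical branch, stood at 25.4, 27.8, 24.7, 28.0 and 23.0 CPM in dehydrated libraries 1 to 5, against 23.1, 22.3, 24.2, 22.2 and 21.7 CPM in euhydrated libraries 1 to 5. Dehydrated 5 lay within the euhydrated range, and euhydrated 1 and 3 within the dehydrated range. The log2 fold change of 0.18 ± 0.06 (SE) missed the threshold in edgeR (adjusted p = 0.0523) and passed with DESeq2 and without dehydrated 5 or euhydrated 3 (adjusted p 0.0210 to 0.0420, where the alternatives reached 0.342). In the authors' deposited table the adjusted p of Lrp5 was 0.0413. Its partner in function, Lrp6, averaged 49.2 ± 1.26 CPM in dehydrated and 47.6 ± 1.78 CPM in euhydrated libraries (SD, n = 5 each; edgeR adjusted p = 0.49).

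The other frizzled receptors did not pass. Fzd4, a receptor on brain endothelium that also takes norrin, averaged 18.1 ± 2.03 CPM in dehydrated and 16.7 ± 0.879 CPM in euhydrated libraries, with dehydrated 4 the lowest of all 10 libraries at 15.0 CPM. Fzd2 averaged 20.2 ± 1.00 CPM in dehydrated and 21.9 ± 1.76 CPM in euhydrated libraries, and Fzd3, known for its part in axon guidance, 19.5 ± 1.54 CPM in dehydrated and 20.6 ± 2.03 CPM in euhydrated libraries. Fzd6, a receptor of planar polarity signalling, averaged 5.93 ± 0.905 CPM in dehydrated and 5.14 ± 1.02 CPM in euhydrated libraries (SD, n = 5 each throughout). Fzd5, Fzd7 and Fzd9 had means of 1.52, 4.51 and 6.59 CPM in dehydrated libraries, against 1.84, 4.90 and 7.02 CPM in euhydrated libraries. The edgeR adjusted p of these 7 genes ran from 0.24 for Fzd2 to 0.609 for Fzd7, and their groups overlapped.

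Among 9 secreted modulators 6 were tested, 1 rose and 5 did not pass (16.7% passed, against 12.7% of all genes tested). Sfrp4 (ENSRNOG00000054957), a secreted protein with a frizzled-like domain that can bind Wnt ligands, stood at 3.75, 3.74, 3.81, 3.50 and 3.80 CPM in dehydrated libraries 1 to 5, against 3.14, 2.58, 2.27, 2.89 and 3.04 CPM in euhydrated libraries 1 to 5. The groups did not overlap, as in 10.9% of all genes tested (6.90% with the dehydrated libraries higher), and the dehydrated libraries lay between 3.50 and 3.81 CPM. On the log2 scale Sfrp4 was higher by 0.42 ± 0.12 (SE; edgeR adjusted p = 0.027), on 480 counts over the dehydrated libraries and 384 over the euhydrated libraries. The call was lost without dehydrated 3 or 5 or euhydrated 2 or 3 (adjusted p 0.0512 to 0.0607).

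The other Sfrp genes did not pass and were more spread. Sfrp1 averaged 65.4 ± 9.70 CPM in dehydrated and 57.1 ± 11.6 CPM in euhydrated libraries (SD, n = 5 each), with dehydrated 2 the highest at 81.3 CPM and euhydrated 2 the lowest at 44.1 CPM (edgeR adjusted p = 0.472). Sfrp2 averaged 1.16 ± 0.236 CPM in dehydrated and 1.53 ± 0.367 CPM in euhydrated libraries, and Sfrp5, on 53 counts over the dehydrated and 37 over the euhydrated libraries, 0.408 ± 0.0876 CPM in dehydrated and 0.267 ± 0.119 CPM in euhydrated libraries (edgeR adjusted p = 0.225 and 0.275). Of the Dkk genes, whose classical members block Lrp5 and Lrp6, Dkk2 averaged 11.5 ± 1.54 CPM in dehydrated and 11.3 ± 2.10 CPM in euhydrated libraries (edgeR adjusted p = 0.944). Dkk3, a divergent member whose effect on Wnt signalling is unsettled, averaged 115 ± 4.37 CPM in dehydrated and 125 ± 9.68 CPM in euhydrated libraries (edgeR adjusted p = 0.104). It passed, lower, in 4 alternatives, with adjusted p of 0.0148 to 0.0377: library totals, the block by column number, the oligodendrocyte covariate and the fit without euhydrated 4.

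R-spondins bind the Lgr receptors and so raise the amount of frizzled receptor at the cell surface. None of the 6 tested genes of this group passed in edgeR, DESeq2 or limma-voom, and 0 had an unadjusted edgeR p below 0.05. Lgr4 (ENSRNOG00000005715) stood at 39.2, 42.0, 36.8, 39.3 and 40.4 CPM in dehydrated libraries 1 to 5, against 38.7, 40.5, 38.6, 42.2 and 43.5 CPM in euhydrated libraries 1 to 5. The groups overlapped over most of their range, and the log2 fold change was -0.04 ± 0.05 (SE; edgeR adjusted p = 0.641). Lgr5, a receptor known from stem cells and also a Wnt target, averaged 6.62 ± 0.533 CPM in dehydrated and 6.40 ± 1.16 CPM in euhydrated libraries, and Lgr6 averaged 1.60 ± 0.232 CPM in dehydrated and 1.37 ± 0.217 CPM in euhydrated libraries (SD, n = 5 each; edgeR adjusted p = 0.838 and 0.456). Rspo2 averaged 3.70 ± 0.630 CPM in dehydrated and 4.65 ± 1.59 CPM in euhydrated libraries, with euhydrated 5 at 1.96 CPM and the other euhydrated libraries at 4.74 to 6.07 CPM. Without euhydrated 5 its log2 fold change was -0.53 (adjusted p = 0.0197), against -0.33 ± 0.25 with it (SE; edgeR adjusted p = 0.438). Rspo1 and Rspo3 averaged 2.81 ± 0.630 and 7.62 ± 1.92 CPM in dehydrated libraries, against 2.96 ± 1.03 and 7.91 ± 1.997 CPM in euhydrated libraries.

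Inside the cell, Dact1 fell and the other 6 transducers did not pass (14.3% passed, against 12.7% of all genes tested). Dact1 (ENSRNOG00000008445), which binds dishevelled and can dampen or divert its signal, stood at 4.70, 6.58, 6.13, 6.07 and 5.84 CPM in dehydrated libraries 1 to 5, against 10.3, 8.87, 8.20, 9.05 and 9.64 CPM in euhydrated libraries 1 to 5. Every dehydrated library lay below every euhydrated one, as in 3.97% of all genes tested, with a gap between 6.58 and 8.20 CPM. The log2 fold change was -0.65 ± 0.10 (SE; edgeR adjusted p = 0.000362), the 35th in size among the 750 falls. It passed in 21 of 22 other fits, with -0.56 to -0.69 across the 4 marker covariates. The exception was the block by label number (-0.77, adjusted p = 0.0922). Dact1 had 754 counts over the dehydrated and 1271 over the euhydrated libraries. Its relatives differed less: Dact2 averaged 19.4 ± 0.560 CPM in dehydrated and 18.8 ± 1.91 CPM in euhydrated libraries, and Dact3 109 ± 5.26 CPM in dehydrated and 116 ± 4.39 CPM in euhydrated libraries (SD, n = 5 each; edgeR adjusted p = 0.734 and 0.134).

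Axin2 (ENSRNOG00000055010), a scaffold of β-catenin breakdown that is itself switched on by the canonical branch, stood at 31.6, 32.2, 30.4, 28.2 and 30.5 CPM in dehydrated libraries 1 to 5, against 36.8, 32.0, 32.3, 34.5 and 33.6 CPM in euhydrated libraries 1 to 5. Dehydrated 2 lay above euhydrated 2, and the other dehydrated libraries lay below all euhydrated ones. The log2 fold change of -0.14 ± 0.05 (SE) did not pass (edgeR adjusted p = 0.0731), except with library totals (-0.17, adjusted p = 0.0381, where the alternatives reached 0.595). The dishevelled genes, the hub that receives the frizzled signal, differed by less than their spread. Dvl1 averaged 79.1 ± 4.32 CPM in dehydrated and 79.9 ± 4.05 CPM in euhydrated libraries, Dvl2 19.5 ± 2.06 CPM in dehydrated and 19.7 ± 1.88 CPM in euhydrated libraries and Dvl3 88.6 ± 3.86 CPM in dehydrated and 86.6 ± 3.50 CPM in euhydrated libraries (SD, n = 5 each; edgeR adjusted p = 0.885, 0.949 and 0.641).

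None of the 4 transcription factors that carry the canonical signal passed in edgeR, DESeq2 or limma-voom, and 0 had an unadjusted edgeR p below 0.05. Tcf7l2 (ENSRNOG00000049232), known in the brain from the thalamus and from oligodendrocyte maturation, stood at 31.6, 38.6, 21.0, 26.3 and 23.1 CPM in dehydrated libraries 1 to 5, against 32.3, 30.4, 26.3, 29.8 and 27.1 CPM in euhydrated libraries 1 to 5. The dehydrated libraries spread from 21.0 to 38.6 CPM and enclosed all euhydrated ones (log2 fold change -0.05 ± 0.16, SE; edgeR adjusted p = 0.879). Tcf7l1, mostly a repressor in the absence of β-catenin, averaged 15.8 ± 1.20 CPM in dehydrated and 14.4 ± 0.771 CPM in euhydrated libraries, Lef1 10.4 ± 0.687 CPM in dehydrated and 10.1 ± 0.328 CPM in euhydrated libraries and Tcf7 5.08 ± 0.567 CPM in dehydrated and 4.90 ± 0.648 CPM in euhydrated libraries (SD, n = 5 each; edgeR adjusted p = 0.217, 0.742 and 0.818).

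The 10 members below the filter had few or no counts. Dkk1, Dkkl1 (a dickkopf-like gene of the sperm acrosome), Fzd8 and Wnt1 were at 0 in all 10 libraries. By counting error alone this allows up to 0.0230 CPM over the dehydrated and 0.0219 CPM over the euhydrated libraries, with 3 reads as the limit. A 0 need not be a level, however. The entry for Col1a2 was also at 0 in all 10 libraries, where Col1a1 averaged 86.3 CPM in dehydrated and 76.7 CPM in euhydrated libraries. Whether annotation or counting set the zeros of these 4 members was not tested. Wnt3a had 2 counts over the dehydrated and 0 over the euhydrated libraries, and Wnt8a 0 and 1. Dkk4, Rspo4, Wnt8b and Wnt10b had 22, 50, 23 and 36 counts over the dehydrated libraries, against 38, 36, 22 and 33 over the euhydrated libraries. None was tested.

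**Figure D3:**
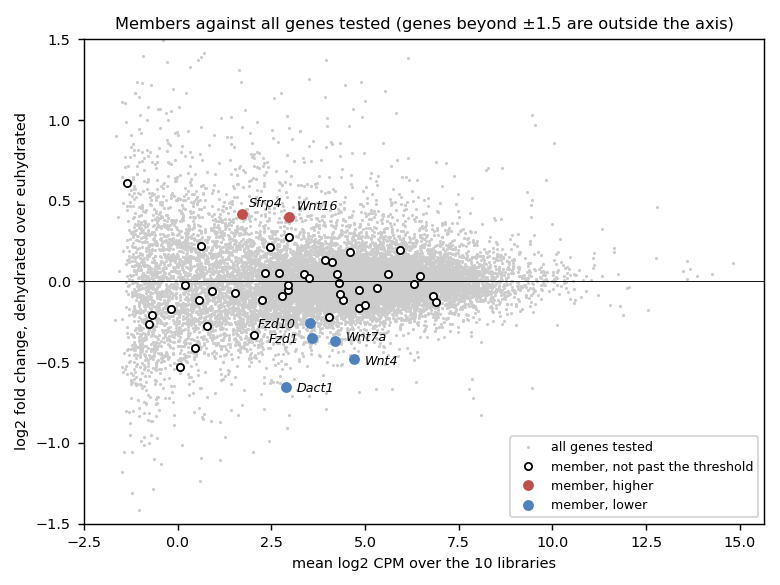
Log2 fold change of dehydrated over euhydrated libraries (vertical axis) against mean log2 CPM over the 10 libraries (horizontal axis) for all 15311 genes tested (grey) and the 48 tested members (circles; filled where the adjusted p was under 0.05); genes past the limits of the vertical axis are not drawn. The members lie inside the cloud of all genes, with Dact1 at -0.65 the lowest of those that passed and Sfrp4 at 0.42 the highest.

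The rest of the pathway was read from lists of other genes, chosen with earlier results of these data known. Of 85 tested genes of secretion, membrane, cytoplasm and nucleus that are no members, 5 rose, 2 fell and 78 did not pass. That is 8.24%, against 12.7% of all genes tested, with a median log2 fold change of -0.01 in both. The groups did not overlap for 5 higher and 3 lower of the 85, against 6.90% and 3.97% of all genes tested. The counts moved to 2 higher without dehydrated 1 or euhydrated 2, and 3 higher without euhydrated 4. β-catenin itself (Ctnnb1) averaged 236 ± 6.50 CPM in dehydrated and 227 ± 6.37 CPM in euhydrated libraries, and Wls, which carries Wnt ligands to the cell surface, 97.6 ± 2.52 CPM in dehydrated and 94.2 ± 5.38 CPM in euhydrated libraries (SD, n = 5 each). Neither passed (edgeR adjusted p = 0.273 and 0.437); these 2 and Adgra2 below were named after their values were seen.

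Cthrc1 (ENSRNOG00000004578), a secreted protein that can join Wnt ligands to frizzled and Ror receptors, rose 1.70-fold. It stood at 5.72, 4.79, 5.77, 4.21 and 6.12 CPM in dehydrated libraries 1 to 5, against 2.86, 3.65, 2.58, 3.58 and 3.04 CPM in euhydrated libraries 1 to 5. The groups did not overlap (edgeR adjusted p = 0.00116). Tle1 (ENSRNOG00000005882), a co-repressor that Tcf and Lef factors recruit in the absence of β-catenin, rose 1.40-fold. It stood at 24.7, 24.2, 23.8, 23.7 and 21.2 CPM in dehydrated libraries 1 to 5, against 17.2, 17.6, 13.8, 17.2 and 18.5 CPM in euhydrated libraries 1 to 5. Its groups were apart as well (edgeR adjusted p = 0.000388), and it passed in all 22 other fits.

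Reck and Tspan12, both membrane proteins known from Wnt signalling in brain endothelium, rose by small amounts. Reck averaged 39.6 ± 1.10 CPM in dehydrated and 35.5 ± 1.52 CPM in euhydrated libraries, and Tspan12, a partner of Fzd4, 62.7 ± 3.63 CPM in dehydrated and 56.8 ± 1.22 CPM in euhydrated libraries (SD, n = 5 each; edgeR adjusted p = 0.021 and 0.0358). Neither pair of groups overlapped. Both calls were lost with library totals (adjusted p = 0.0685 and 0.0782). The call of Reck was also lost without dehydrated 1 or euhydrated 2 (adjusted p up to 0.0534), and that of Tspan12 without any 1 library other than dehydrated 3 or euhydrated 5 (adjusted p up to 0.0793). Both also lost their calls with the endothelial covariate (log2 fold changes 0.15 and 0.13, adjusted p = 0.0551 and 0.0966) and the leptomeningeal one (0.13 and 0.16, adjusted p = 0.139 and 0.0641). Reck lost its call with the oligodendrocyte covariate (0.15, adjusted p = 0.0531), and Tspan12 with the erythrocyte one (0.12, adjusted p = 0.262). Over all alternatives the adjusted p spanned 0.0104 to 0.160 for Reck and 0.0221 to 0.402 for Tspan12. Adgra2, the partner of Reck, averaged 54.7 ± 1.58 CPM in dehydrated and 53.6 ± 4.70 CPM in euhydrated libraries and did not pass (edgeR adjusted p = 0.803). Daam2, a formin that binds dishevelled, rose 1.16-fold, with 52.5 ± 5.05 CPM in dehydrated and 45.1 ± 1.78 CPM in euhydrated libraries (edgeR adjusted p = 0.0234), a call lost without dehydrated 1, 2 or 4 or euhydrated 2 or 4 (adjusted p up to 0.0616). It was also lost with the endothelial, leptomeningeal and oligodendrocyte covariates, at log2 fold changes of 0.22, 0.13 and 0.21 (adjusted p = 0.0553, 0.208 and 0.0535, where the alternatives ran from 0.00369 to 0.208). Ankrd6, which binds axin and dishevelled, fell 1.14-fold, with 73.9 ± 4.07 CPM in dehydrated and 84.5 ± 4.39 CPM in euhydrated libraries and no overlap (edgeR adjusted p = 0.0107). Its call was lost with the leptomeningeal covariate, at a log2 fold change of -0.18 (adjusted p = 0.0503, where the alternatives ran from 0.00175 to 0.167).

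**Figure D4:**
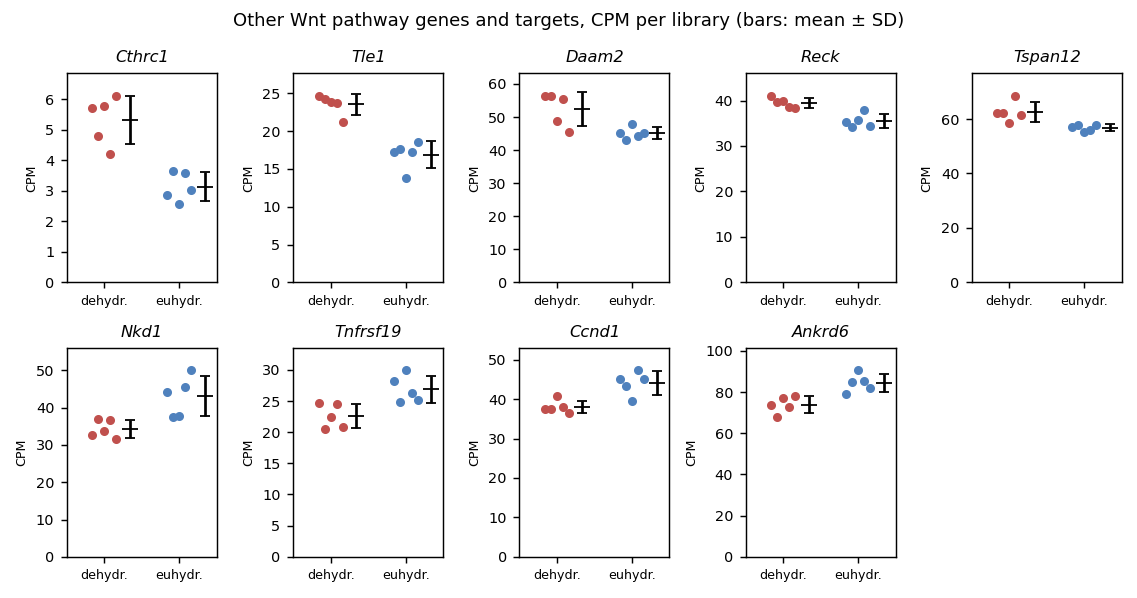
CPM per library (vertical axes, starting at 0) for the 9 other pathway genes and targets that passed, dehydrated libraries in red on the left of each panel and euhydrated in blue, with mean ± SD in black. Cthrc1, Tle1, Reck and Tspan12 are higher and Nkd1, Tnfrsf19 and Ankrd6 lower in all dehydrated libraries, while Daam2 and Ccnd1 overlap between groups.

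Of 16 tested genes that are textbook targets of the canonical branch 3 fell, 0 rose and 13 did not pass (18.8%, against 12.7% of all genes), with a median log2 fold change of -0.0048 against -0.0058. At an unadjusted edgeR p below 0.05 there was 1 rise, and DESeq2 and limma-voom called 0. In the fit without dehydrated 1 there was 1 rise past the threshold. The list shares Axin2, Lef1, Tcf7, Lgr5, Dkk1 and Sfrp2 with the members, and none of these passed. It also shares Nkd1, Rnf43, Notum and Apcdd1 with the other pathway lists, and Nkd1 is counted among the falls of both. Nkd1 (ENSRNOG00000014293), a feedback inhibitor that binds dishevelled, stood at 32.7, 37.0, 33.9, 36.7 and 31.6 CPM in dehydrated libraries 1 to 5, against 44.3, 37.5, 37.7, 45.7 and 50.1 CPM in euhydrated libraries 1 to 5. The groups did not overlap, and the log2 fold change was -0.33 ± 0.08 (SE; edgeR adjusted p = 0.0161). Of the 16 targets 2 were lower and 0 higher without overlap, against 3.97% and 6.90% of all genes tested. Tnfrsf19, a receptor of the tumour necrosis factor family, fell 1.19-fold with 22.6 ± 1.99 CPM in dehydrated and 26.9 ± 2.18 CPM in euhydrated libraries, and Ccnd1, for cyclin D1, 1.16-fold with 38.0 ± 1.60 CPM in dehydrated and 44.1 ± 2.95 CPM in euhydrated libraries (SD, n = 5 each; edgeR adjusted p = 0.0234 and 0.0107). The call of Tnfrsf19 was lost without dehydrated 2, 3 or 5 or euhydrated 1 or 3 (adjusted p up to 0.0637). With the erythrocyte marker level as a covariate none of the 3 passed in edgeR, at log2 fold changes of -0.24 for Nkd1, -0.29 for Tnfrsf19 and -0.16 for Ccnd1 (adjusted p = 0.236, 0.0922 and 0.191). With the leptomeningeal one Nkd1 and Ccnd1 did not pass, at -0.30 and -0.19 (adjusted p = 0.0921 and 0.0691). Over all alternatives the estimates stayed below 0, and those nearest to it were -0.21 for Nkd1, -0.21 for Tnfrsf19 and -0.16 for Ccnd1.

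Markers of other cells were read as summed CPM per library. The SON's own markers (5 of 5 detected: Avp, Oxt, Pdyn, Caprin2 and Creb3l1) stood at 11476 to 15245 CPM in dehydrated and 7749 to 11168 CPM in euhydrated libraries. Avp and Oxt did not pass (edgeR adjusted p = 0.0800 and 0.254), and Pdyn, Caprin2 and Creb3l1 rose (log2 fold changes 1.03, 1.81 and 1.91). The list was written with earlier results known and holds genes that rose, so its sum does not measure how much SON tissue a punch held. Erythrocyte markers (10 of 11 names matched and detected) stood at 602 to 1454 CPM in dehydrated and 1062 to 2134 CPM in euhydrated libraries. The names Hbb-b1 and Hbb-bs led to the same gene, which enters these sums and the counts below under both names. Leptomeningeal markers (13 of 14 detected, the entry for Col1a2 at 0) stood at 1051 to 1301 against 1045 to 1261 CPM, and endothelial ones (14 of 15 matched and detected) at 604 to 680 against 618 to 650 CPM. Of the 12 leptomeningeal markers tested 10 had estimates above 0 and 2 below (median log2 fold change 0.18), and none passed. Endothelial estimates were above 0 for 9 and below for 5 (median 0.04), and Kdr rose. Mural ones were above 0 for 9 and below for 2 (median 0.13), and Cspg4 rose. Of the 8 erythrocyte entries tested, with that gene under both names, all had estimates below 0 (median log2 fold change -0.71), and Slc4a1 fell. Oligodendrocyte markers (11 of 11) stood at 9827 to 12552 CPM in dehydrated and 10271 to 14925 CPM in euhydrated libraries. Of these 8 had estimates below 0 (median -0.18), and Opalin and Cnp fell. Astrocyte markers (12 of 12) stood at 7122 to 8417 CPM in dehydrated and 7090 to 8328 CPM in euhydrated libraries. Their estimates were below 0 for 9 and above for 3 (median -0.06), and Aldoc rose. Oligodendrocyte precursor markers (4 of 6 detected) stood at 173 to 200 CPM in dehydrated and 170 to 193 CPM in euhydrated libraries. Their estimates were below 0 for 3 and above for 1 (median -0.17), and none passed. Microglial markers (12 of 12) stood at 391 to 442 CPM in dehydrated and 422 to 469 CPM in euhydrated libraries. Of these 9 had estimates below 0 (median -0.10), and 7 had an unadjusted edgeR p below 0.05, all lower. Apart from the magnocellular list, the ranges of all 13 other lists overlapped between groups. Those of ependymal cells, tanycytes, the choroid plexus (Otx2 at 0) and the suprachiasmatic nucleus summed to at most 47.5 CPM in any library. Markers of cortex and amygdala (5 of 5) were uneven within both groups, at 34.1 to 87.5 CPM in dehydrated and 34.7 to 116 CPM in euhydrated libraries. Of these 3 had estimates above 0 and 2 below (median log2 fold change 0.02), and none passed. Of the 8 choroid plexus markers tested 6 had estimates below 0 and 2 above. Among them Clic6 and Slc4a5 fell without overlap, as 3.97% of all genes tested were lower without overlap (edgeR adjusted p = 0.00524 and 0.0189).

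With each of the 4 marker levels as a covariate, Wnt4 and Dact1 kept their calls. With the erythrocyte covariate Wnt7a, Fzd1, Fzd10, Wnt16 and Sfrp4 did not pass, at log2 fold changes of -0.28, -0.26, -0.19, 0.43 and 0.44. With the leptomeningeal covariate Wnt7a, Fzd1, Wnt16 and Sfrp4 did not pass, at -0.39, -0.33, 0.23 and 0.48. Fzd10 and Sfrp4 did not pass with the endothelial covariate, at -0.25 and 0.39, and Wnt7a and Fzd10 did not with the oligodendrocyte one, at -0.29 and -0.21. The part of these cells in the changes was not tested otherwise. That of the other listed cells, among them microglia, astrocytes and oligodendrocyte precursors, was not tested.

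**Figure D5:**
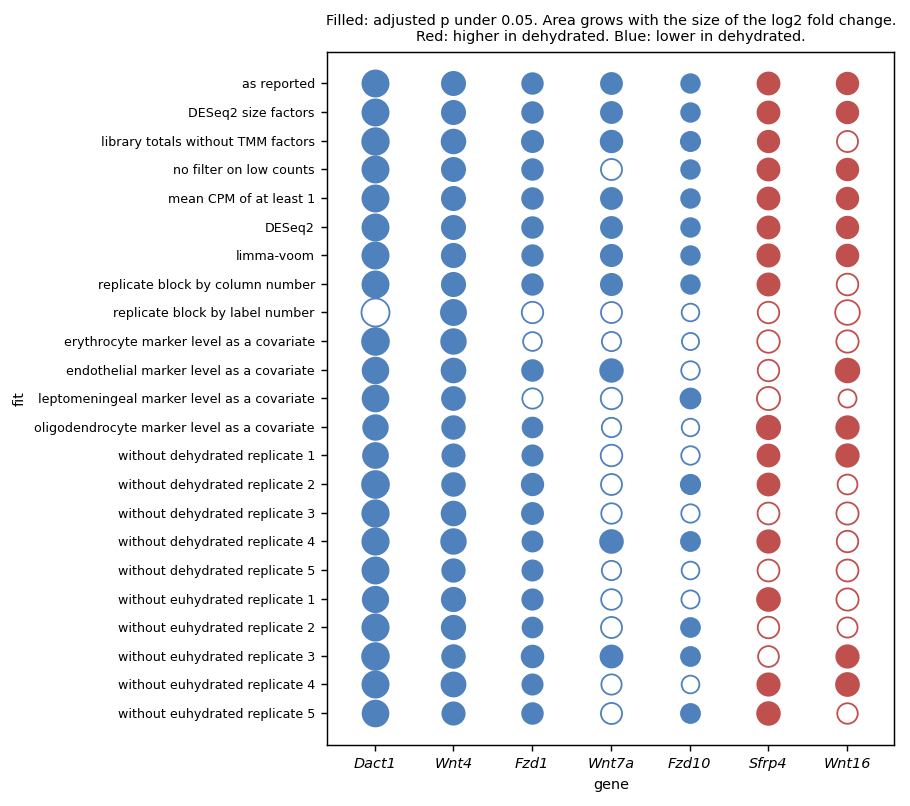
The 7 members that changed (columns) under the reported fit and 22 others (rows). Circles are filled where the adjusted p was under 0.05, red for higher and blue for lower in dehydrated libraries, and their area grows with the size of the log2 fold change; colours never change within a column, and Wnt4 is filled in every row.

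In the authors' deposited table, 45 members have an adjusted p, of which 3 are higher and 5 lower at 0.05 (15.4% of the 14613 genes with one in that table pass). The 7 members that changed here are among these 8 with the same direction, and the other is Lrp5.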

How the data were processed

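RNA sequencing measured polyadenylated RNA in 5 dehydrated and 5 euhydrated SON punches, with the TruSeq Stranded mRNA kit, per the labels. The authors deposited whole-number read counts for each Ensembl gene and a table of their own comparison, which holds, per the file headers, a Wald score per gene, log2 fold changes with SE, raw and adjusted p-values, and normalised counts as a signal per sample. The submitters' processing notes name featureCounts, STAR, FastQC, CASAVA and DESeq2 1.28.1. Build, annotation release and strand setting were not given in the sources used here, and so overlapping and antisense genes are uncertain, and with no transcript lengths levels were not compared between genes.

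The members and lists were chosen with earlier results of these data known. Column names of euhydrated 3 to 5 match no single title, and these columns were placed by group alone; column numbers name the libraries. Totals were 24268398 to 28491926 counts, of which the members took 0.0917% to 0.0988% in dehydrated and 0.0963% to 0.103% in euhydrated libraries. No pair of libraries within a group was alike to within sampling noise (chi-square over its degrees of freedom 4.86 to 12.1, genes of 20 or more counts). Genes were kept with filterByExpr, scaled with TMM and tested with glmQLFit and glmQLFTest (robust, no covariate) in edgeR 4.0.16 and R 4.3.3, which was tested on simulated data. SE is the log2 fold change over the root of the F statistic. Alternatives, also with limma 3.58.1 and DESeq2 1.42.0, are in the closing section; marker covariates are mean log2 CPM with a prior count of 2. Limits at 0 counts cover counting error only. Values per library are given for members past the threshold, not overlapping or with an adjusted p of 0.05 to 0.1, and for the member with the highest mean CPM in a role with none of these. Of the other pathway genes and targets, up to 4 per list past the threshold are named. Znrf3, Frat1 and 5 marker genes were not analysed here. Promoters came from RefSeq (GRCr8), matched by NCBI gene number for 42 of 58 members.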

Additional observations from a re-analysis of the deposited data

Results flagged for a closer look

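A library far from the other 4 of its group was looked for in both groups of each of 21 named genes (critical ratio of gap to range 0.71 for 5 samples), and 3 of 42 were found, where chance gives about 1 in 20. Sfrp4 in dehydrated 4 was low, at 3.50 CPM where the other dehydrated libraries stood at 3.74 to 3.81 CPM, and still above every euhydrated library. Tle1 was low in dehydrated 5, at 21.2 CPM where the others stood at 23.7 to 24.7 CPM, and low in euhydrated 3, at 13.8 CPM where the others stood at 17.2 to 18.5 CPM.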

How the results depend on the processing

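The 7 members that changed kept their direction in all 22 other fits, while 19 of the 41 others had an estimate of the opposite sign in at least 1. DESeq2 size factors, limma-voom and a mean CPM of at least 1 left the counts of members at 2 higher and 5 lower. A threshold of 0.01 gave 0 and 2, library totals 1 and 8, the replicate block by column number 1 and 6, the replicate block by label number 0 and 1, and the erythrocyte, endothelial and leptomeningeal covariates 0 and 2, 1 and 4, and 0 and 3. Among all genes tested, 1192 higher and 750 lower as reported became 904 and 1173 with library totals. They became 1160 and 796 with the block by column number and 321 and 109 with that by label number. With the erythrocyte, endothelial and leptomeningeal covariates they became 583 and 201, 913 and 510, and 817 and 373. Over fits without 1 library members ran from 0 to 2 higher and 3 to 5 lower, other pathway genes from 2 to 6 higher and 2 to 3 lower, and targets from 0 to 1 higher and 2 to 3 lower. For other pathway genes the counts were 2 and 0 at 0.01, 3 and 5 with library totals, 2 and 0 with the block by label number, 4 and 1 with the erythrocyte, 2 and 2 with the endothelial, 2 and 0 with the leptomeningeal and 3 and 2 with the oligodendrocyte covariate. The targets that fell, 3 as reported, were 0 at 0.01, 0 with the block by label number, 0 with the erythrocyte and 1 with the leptomeningeal covariate. The log2 fold change of Lgr4 turned to 0.035 with the block by label number and 0.013 with the erythrocyte covariate; Tcf7l2 turned to 0.16 and 0.11 in these fits, to 0.00059 with the endothelial covariate, and ran from -0.19 without dehydrated 2 to 0.038 without dehydrated 3 (0.010 without dehydrated 5). The cause was not tested. Deviations of same-numbered libraries correlated at -0.07 to 0.14, and those of differently numbered ones at -0.10 to 0.14. Column numbers of some euhydrated libraries match no single title, so this check cannot tell whether libraries were paired. The block by label number ties only libraries 1 and 2 of each group and leaves 1 residual degree of freedom.

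Members lay at a median of 9.09 CPM with a median SE of 0.11 on the log2 scale, where all genes tested had 21.0 CPM and 0.07, so small changes are harder to call in them.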
